A study of Mus musculus with 2 samples.

Results

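Integrins are cell surface receptors that hold a cell to its neighbors and to the extracellular matrix. The 10 integrin chains described here were taken by gene symbol from the 31053 genes of the count table: the α chains Itga4, Itga6, Itga5, Itgal, Itga2b and Itgam and the β chains Itgb1, Itgb7, Itgb2 and Itgb3. All 10 were found, and 17 other integrin chains were looked at beside them. The cells were GFP+ Lin− c-Kit+ splenocytes of C57BL/6 mice with AE9a leukemia, an acute myeloid leukemia (AML) driven by a truncated form of the AML1/ETO fusion. In all, 2 libraries of single-cell RNA sequencing were made, 1 per group, and each pooled the sorted cells of 3 mice. In both groups the leukemia came from fetal liver cells that were Usp18+/f and had received AE9a with GFP from a retrovirus, and these leukemia cells had been passed to irradiated recipients, per the methods of the study. Sick recipients got oil (label Usp18+/f) or tamoxifen (label Usp18+/Δ), and the sort followed on day 3 after the first injection. Mice were 8 to 12 weeks old and of both sexes, per the methods. A pool of 3 mice in 1 library leaves no spread between mice, and how many leukemia clones each recipient carried was not measured here.

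An integrin is a heterodimer of 1 α and 1 β chain, and only the assembled pair reaches the surface. α4β1 (VLA-4) binds VCAM-1 and fibronectin, and α4β7 binds MAdCAM-1 of the gut vessels. α5β1 binds fibronectin, α6β1 binds laminin, αLβ2 (LFA-1) binds ICAMs, αMβ2 (CD11b/CD18) marks myeloid cells, and αIIbβ3 is the fibrinogen receptor of platelets. Talin and kindlin switch the receptors on from inside the cell, and VLA-4 is known for holding blood progenitors and leukemia cells in the bone marrow.

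The Usp18+/f-labelled library held 58068183 UMIs (unique molecular identifiers, 1 per captured RNA molecule) in 6546 kept cells, with a median of 8575.5 UMIs per cell. The Usp18+/Δ-labelled library held 59503327 UMIs in 7073 kept cells, with a median of 8023. Cell barcodes are drawn from 1 common pool, and 11 barcodes of kept cells occurred in both libraries. Levels are in CPM: all cells of a set were summed, and the UMIs of 1 gene were scaled to a total of 1000000. Because 1 UMI is 1 RNA end whatever the length of the RNA, CPM can be compared between genes without dividing by length. With 1 library per group there is no replicate and no test, and every interval below is a 95% interval for counting error only. Usp18, the targeted gene, went against its label: it had 330 UMIs (5.68 CPM) in the Usp18+/f-labelled library and 1434 UMIs (24.1 CPM) in the Usp18+/Δ-labelled library. The 3′ counts do not show which allele an RNA came from. Usp18 is itself an interferon-stimulated gene, and cells high in such genes numbered 55 and 819 in the same order, counted above the 99th percentile of the first library. Whether the libraries carry the right labels was not tested. All 6 markers of the sorted progenitors were above 5 CPM in both libraries. Kit stood at 96.8 and 102 CPM, Cd34 at 6.17 and 16.4 CPM and Runx1t1, the gene of ETO, at 23.6 and 33.7 CPM, while Myb, Gata2 and Runx1 had log2 ratios between −0.14 and −0.07. Markers of T, B, NK and endothelial cells summed to at most 0.44 CPM per list in either library. Other lists were higher: macrophage markers summed to 2.08 and 5.51 CPM, neutrophil or monocyte markers to 0.431 and 24.5 CPM, mast cell or basophil markers to 1834 and 2089 CPM and erythroid markers to 4218 and 4362.5 CPM. Of the 1455 UMIs behind the neutrophil or monocyte value of 24.5 CPM, 1278 were in 1 cell.

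The RefSeq promoter table (GRCm38.p6, the mm10 build) held 6 of the 10 chains. The promoters of Itga4, Itgb1, Itgb7 and Itga2b are shown because these 4 genes turned out to be used differently in the cells described below. Itga4, Itgb7 and Itga2b were high in the same cluster of cells, and Itgb1 was not. Each sequence runs 5′ to 3′ from 250 bases before to 50 bases after the start of the gene. Itga4 is at chr2:79255176-79255475 on the plus strand and Itgb1 at chr8:128685404-128685703 on the plus strand. Itgb7 is at chr15:102231886-102232185 and Itga2b at chr11:102469834-102470133, both on the minus strand. Capitals mark matches, on either strand, to TGTGGT, which is bound by RUNX factors, the family that AML1 belongs to, and to GGAAG, which is bound by ETS factors. GATAA, which is bound by GATA factors, was searched as well. No 2 of these motifs overlap in the 4 sequences.
Itga4: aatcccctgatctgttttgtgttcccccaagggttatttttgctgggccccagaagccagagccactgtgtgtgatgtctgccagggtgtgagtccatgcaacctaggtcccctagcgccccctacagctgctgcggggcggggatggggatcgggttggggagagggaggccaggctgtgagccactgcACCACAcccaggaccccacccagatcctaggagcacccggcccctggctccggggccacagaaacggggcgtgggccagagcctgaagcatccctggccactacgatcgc
Itgb1: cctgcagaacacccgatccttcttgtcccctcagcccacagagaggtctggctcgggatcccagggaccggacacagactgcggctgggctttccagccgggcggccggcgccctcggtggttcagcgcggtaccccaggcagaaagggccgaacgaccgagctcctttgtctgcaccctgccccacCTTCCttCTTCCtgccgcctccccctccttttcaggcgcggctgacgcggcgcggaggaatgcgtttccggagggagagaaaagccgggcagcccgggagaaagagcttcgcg
Itgb7: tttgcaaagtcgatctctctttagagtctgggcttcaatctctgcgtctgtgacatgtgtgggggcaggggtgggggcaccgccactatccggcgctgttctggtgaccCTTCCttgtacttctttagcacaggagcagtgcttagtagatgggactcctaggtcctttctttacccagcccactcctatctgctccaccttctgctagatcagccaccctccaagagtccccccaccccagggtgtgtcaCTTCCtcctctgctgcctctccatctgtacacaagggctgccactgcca
Itga2b: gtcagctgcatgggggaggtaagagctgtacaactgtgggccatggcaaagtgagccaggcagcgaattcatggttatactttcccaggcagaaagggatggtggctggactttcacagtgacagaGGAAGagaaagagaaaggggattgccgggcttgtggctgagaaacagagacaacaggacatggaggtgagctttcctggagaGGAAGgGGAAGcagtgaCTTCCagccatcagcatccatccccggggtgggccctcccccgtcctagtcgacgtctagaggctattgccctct

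The Itga4 promoter held 1 match to TGTGGT, on the minus strand 60 bases before the start, and none to the other motifs. Among all 32851 promoters, 16.8% hold TGTGGT, 25.4% hold GATAA and 71.4% hold GGAAG. Itgb1 had 2 matches to GGAAG, Itgb7 had 2 and Itga2b had 4, of which 3 lay within 42 bases of the start. GATAA was found in none of the 6 promoters, which says only that these letters are not in these windows. The Itga4 and Itgb1 promoters were richer in G and C (64.3% and 67.3%) than those of Itgb7 and Itga2b (56.3% and 56.0%), against a median of 52.7% over the table, and Itgb1 held 27 CpG dinucleotides against 10, 5 and 6 in Itga4, Itgb7 and Itga2b. A match is a run of letters and no measure of binding.

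Which integrin chains did the leukemia cells carry? The cells carried mainly 4 chains. Itgb1, Itga4, Itgb7 and Itga6 made up 94.5% of the UMIs of the 10 chains in the Usp18+/f-labelled library and 94.1% in the Usp18+/Δ-labelled library. Itgal, Itga5 and Itgb2 followed far below, Itga2b and Itgb3 were rare, and Itgam was all but missing. The order of the first 5 chains was the same in both libraries.

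Itgb1, the common β1 chain, led with 16642 UMIs (287 CPM, 282 to 291) in the Usp18+/f-labelled library and 16346 UMIs (275 CPM, 271 to 279) in the Usp18+/Δ-labelled library. It ranked 435 by mean CPM among 17624 genes with a UMI. Itga4, the α4 chain of VLA-4, had 9194 UMIs (158 CPM, 155 to 162) and 9472 UMIs (159 CPM, 156 to 162) in the same order. Itgb7, the other β chain that α4 can take, had 7383 UMIs (127 CPM, 124 to 130) and 7148 UMIs (120 CPM, 117 to 123). Thus there were 1.81 and 1.73 UMIs of Itgb1, and 0.803 and 0.755 UMIs of Itgb7, for each UMI of Itga4. Itga6, the α6 chain of laminin receptors, had 5113 UMIs (88.1 CPM, 85.7 to 90.5) and 5753 UMIs (96.7 CPM, 94.2 to 99.2). No neighbors among these 4 chains overlapped in their counting intervals within a library.

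The chains of the middle range were close to each other. Itgal, the αL chain of LFA-1, had 820 UMIs (14.1 CPM) and 996 UMIs (16.7 CPM) in the Usp18+/f- and Usp18+/Δ-labelled libraries. Itga5, the α5 chain of the fibronectin receptor, had 686 UMIs (11.8 CPM, 10.9 to 12.7) and 590 UMIs (9.92 CPM, 9.13 to 10.7). Itgb2, the β2 chain of leukocyte integrins, had 573 UMIs (9.87 CPM, 9.08 to 10.7) and 638 UMIs (10.7 CPM, 9.91 to 11.6). Itga5 lay above Itgb2 in the Usp18+/f-labelled library and below it, with overlapping intervals, in the other.

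The platelet pair was rare and unequal. Itga2b, the αIIb chain that is also present on early progenitors and mast cells, had 120 UMIs in 119 cells (2.07 CPM) and 173 UMIs in 165 cells (2.91 CPM). Itgb3, its β3 partner, had 26 UMIs in 26 cells (0.448 CPM) and 38 UMIs in 38 cells (0.639 CPM), so that Itga2b exceeded it 4.62 and 4.55 times. The 8 markers of megakaryocytes and platelets summed to 15.4 and 16.2 CPM, 3 of them were at 0 in both libraries and only Gp1ba reached 5 CPM. Itgam had 1 UMI in the Usp18+/f-labelled library and 5 UMIs in 2 cells in the Usp18+/Δ-labelled library. Of those 5 UMIs, 4 were in 1 cell that also held 1278 UMIs of the neutrophil genes S100a8, S100a9, Camp and Ngp. The lineage antibodies that the methods list for bone marrow include CD11b, the product of Itgam, and the part of the Lin− gate in this level was not tested.

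**Figure D1:**
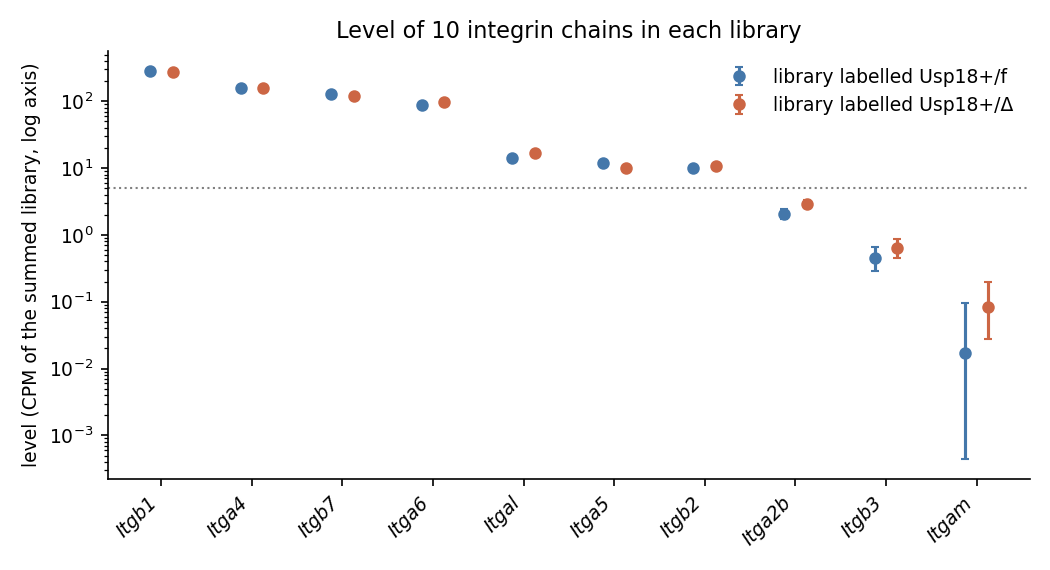
Level of the 10 integrin chains (CPM of the summed cells, log axis) in the Usp18+/f-labelled library (blue) and the Usp18+/Δ-labelled library (orange), with exact Poisson 95% intervals. The dotted line is 5 CPM: 7 chains lie above it in both libraries, and Itga2b, Itgb3 and Itgam below it.

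The 10 chains took 95.5% and 95.6% of the UMIs of all 27 integrin chains. Of the 17 others, only Itga1, a collagen receptor chain, and Itgav, the αV chain, reached 5 CPM. Itga1 stood at 13.3 and 11.5 CPM and Itgav at 10.7 and 10.9 CPM in the Usp18+/f- and Usp18+/Δ-labelled libraries. Itgax, the dendritic cell chain, had 0 and 3 UMIs, and Itgae, the other α partner of Itgb7, had 10 and 24 UMIs. For a chain with no UMI the upper limit is 3 UMIs, or 0.0517 and 0.0504 CPM.

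Shares of cells were compared in cells drawn down at random to 3000 UMIs each (thinned cells), 6090 and 6723 in number, without 456 and 350 shallower cells. Itgb1 had a UMI in 55.7% (54.5% to 57.0%) and 53.5% (52.3% to 54.7%) of thinned cells, Itga4 in 36.3% and 36.5%, Itgb7 in 31.8% and 31.0%, and Itga6 in 23.2% and 24.8%. Without thinning the shares were 83.7% and 80.3% for Itgb1, 68.0% and 66.6% for Itga4, 62.0% and 58.7% for Itgb7, and 50.1% and 51.4% for Itga6. Free RNA in the droplets could not be set against these shares, since the libraries hold no cell type in number that should lack these chains. Variance over mean of the thinned counts lay between 1.06 and 1.16 for these 4 chains in both libraries, where counts drawn at random from equal cells would give 1. Few UMIs of each chain remain in a thinned cell, and this ratio then stays near 1 even where levels differ between cells. It therefore sets no limit on the spread between single cells.

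Which pairs could be assembled in the same cell? The α and β chains of VLA-4 met in more cells than those of any other pair looked at. Itga4 and Itgb1 were both seen in 19.9% (18.9% to 20.9%) and 19.5% (18.6% to 20.5%) of thinned cells, or in 58.9% and 55.0% of cells without thinning. Itga6 with Itgb1 followed at 13.2% and 12.9%, and Itga4 with Itgb7 at 12.1% and 11.8%. Of the 12 pairs looked at, these 3 were the only ones above 3% of thinned cells in either library.

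Of all thinned cells, 6.22% and 6.26% carried Itga4 with both β chains, 13.6% and 13.3% carried Itga4 with Itgb1 alone, and 5.83% and 5.55% carried Itga4 with Itgb7 alone. The β chains were not concentrated in cells with the α chain. In the Usp18+/f-labelled library, Itgb1 was seen in 54.7% of cells with Itga4 and 56.3% of cells without it, and in the Usp18+/Δ-labelled library in 53.6% and 53.5%. Itgb7 was seen in 33.2% of cells with Itga4 and 31.1% of cells without it in the Usp18+/f-labelled library, and in 32.4% and 30.2% in the other. All cells of a library share its depth and its free RNA, and a cell without a UMI of a chain may still hold its RNA. None of the 4 leading chains was seen in 15.2% and 15.6% of thinned cells.

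Other pairs were seldom seen together. Itga5 with Itgb1 was in 2.28% and 1.47% of thinned cells. Itgal with Itgb2, the 2 chains of LFA-1, were together in 8 and 7 cells (0.131% and 0.104%), and Itgb2 was seen in 3.11% of Itgal cells against 3.19% of the others in the Usp18+/f-labelled library and in 1.94% against 3.43% in the Usp18+/Δ-labelled library. Itga2b with Itgb3 occurred in 0 of 6090 and 0 of 6723 thinned cells, which allows up to 0.0493% and 0.0446% of thinned cells with a UMI of both and sets no limit on cells that hold both RNAs. Without thinning, 1 cell of the Usp18+/Δ-labelled library had both. Itgam with Itgb2 was in 0 cells and in 1 cell. Of the pairs with a chain from outside the 10, Itgav with Itgb1 was in 1.54% and 1.73% of thinned cells, Itga6 with Itgb4 in 0.279% and 0.223%, and Itgae with Itgb7 in 2 and 7 cells.

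How did the chains differ between the libraries? The leading chains were nearly level. Against the Usp18+/f-labelled library, the log2 ratio of CPM in the Usp18+/Δ-labelled library was 0.01 (−0.03 to 0.05) for Itga4, −0.06 (−0.09 to −0.03) for Itgb1, −0.08 (−0.13 to −0.03) for Itgb7 and 0.13 (0.08 to 0.19) for Itga6. The widest differences among the 7 chains with a mean of at least 5 CPM were in Itgal, 0.25 higher (0.11 to 0.38), and Itga5, lower at −0.25 (−0.41 to −0.09). Itgb2 stood at 0.12 (−0.05 to 0.29). The direction of Itgb7 and Itga6 depended on the cells used: Itgb7 stood at 0.23 with a limit of 5% mitochondrial UMIs and at 0.14 with equal weight for depth ranges, and Itga6 at −0.10 with the latter.

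None of these 7 chains was past the size threshold used here, a level at least 25% above that of the other library, but 5 of 8 were under the 5% mitochondrial limit, where 28.5% of all genes were, and 3 of 8 with equal weight for depth ranges, where 38.3% of all genes were. Over all 8879 genes at 5 CPM or more on average, 4.60% were past it, 3.48% higher and 1.11% lower in the Usp18+/Δ-labelled library. The median log2 ratio of the 7 chains was 0.01, and that of the 8879 genes was 0.01 as well. Of these genes 93.9% lay farther from 0 than Itga4, 57.4% farther than Itgb1, 45.1% farther than Itgb7 and 24.5% farther than Itga6, against 7.82% for Itgal and 7.40% for Itga5. Of the 3 rare chains, Itga2b was 0.49 higher on the log2 scale (0.15 to 0.84) and Itgb3 0.51 higher (−0.25 to 1.29). Of the Itga2b UMIs, 9 and 47 were in cluster 5, described below, which held 3.93% and 7.97% of the cells. Outside cluster 5 Itga2b stood at 1.95 and 2.19 CPM. Sums over a whole library do not by themselves tell more cells with a chain from more RNA per cell.

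**Figure D2:**
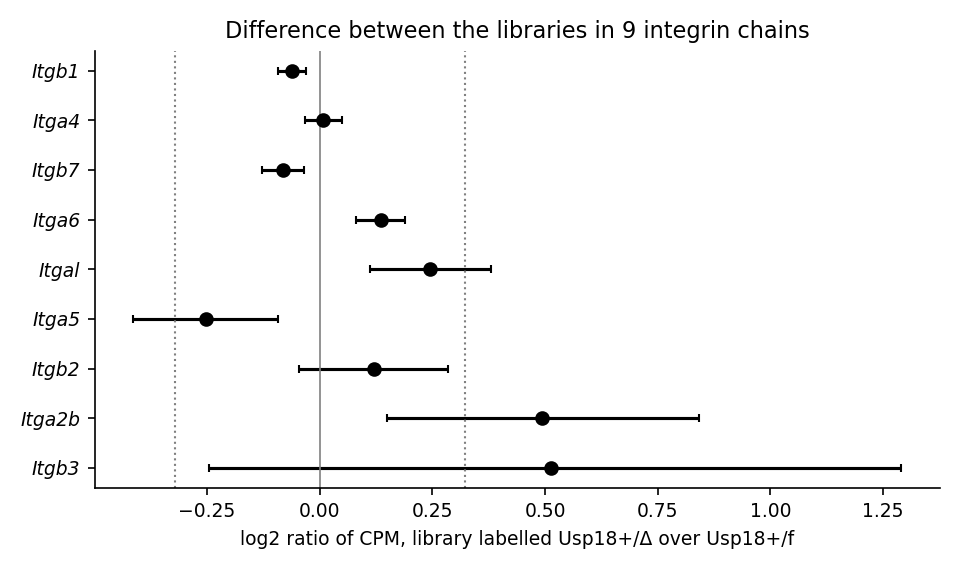
Log2 ratio of CPM between the Usp18+/Δ-labelled library and the Usp18+/f-labelled library for 9 integrin chains, with exact conditional 95% intervals for counting error. The dotted lines mark the 25% threshold: all 7 chains at 5 CPM or more lie between them, and Itga2b and Itgb3 lie to the right with wide intervals.

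The 3 most frequent pairs were close as well. The share of cells with Itga4 and Itgb1 differed by −0.02 on the log2 scale (−0.12 to 0.08), with Itga4 and Itgb7 by −0.03 (−0.17 to 0.11), and with Itga6 and Itgb1 by −0.03 (−0.16 to 0.10). Itga5 with Itgb1 stood at −0.63 (−0.9998 to −0.26), or 139 cells against 99. The rarer pairs Itgav with Itgb1 (0.16), Itgal with Itgb2 (−0.34), Itga6 with Itgb4 (−0.32) and Itgae with Itgb7 (1.66) had intervals that span 0.

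How did the chains follow the cell cycle? Itgb7 took a clearly larger part of the RNA in G1 cells than in cycling cells, and Itgb1 did not. Phases were called from S and G2M genes in the thinned cells. G1 cells were the shallowest, with a median of 6389.5 and 5926 UMIs, and G2M cells the deepest, with 10655 and 10132. The share of G1 calls was 24.3% and 30.8%, and that of G2M calls 48.3% and 42.3%. Phase calls read free RNA too, whose part was not tested.

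Itgb7 stood at 188 CPM in G1, 116 in S and 113 in G2M in the Usp18+/f-labelled library. It stood at 182, 102 and 99.6 CPM in the Usp18+/Δ-labelled library. The G2M over G1 log2 ratio was −0.74 (−0.82 to −0.66) and −0.87 (−0.95 to −0.79). Counted as UMIs per cell, G2M cells of the Usp18+/f-labelled library had 0.985 times as much Itgb7 as G1 cells, and those of the other library 0.912 times.

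Itgb2 had the same order in both libraries, with 15.4, 9.46 and 8.20 CPM in G1, S and G2M in the Usp18+/f-labelled library and 16.7, 9.15 and 8.99 CPM in the Usp18+/Δ-labelled library. Its G2M over G1 log2 ratios were −0.91 (−1.20 to −0.61) and −0.90 (−1.16 to −0.63). Itgal stood at −0.50 and −0.69, Itga2b at −1.20 and −1.31, Itga6 at −0.39 and −0.28, and Itga4 at −0.18 and −0.26, each with an interval below 0. Itga5 stood at −0.70 (−0.97 to −0.42) and −0.22 (−0.51 to 0.08).

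Itgb1 was near level over the phases, and its direction differed between the libraries. In the Usp18+/f-labelled library it stood at 293, 287 and 280.2 CPM in G1, S and G2M, a G2M over G1 log2 ratio of −0.07 (−0.13 to −0.01). In the Usp18+/Δ-labelled library it stood at 248, 280.3 and 284 CPM, a log2 ratio of 0.20 (0.14 to 0.25). Per cell, Itgb1 went from 1.95 to 3.06 UMIs and from 1.55 to 2.97 UMIs between G1 and G2M, and Itga4 from 1.17 to 1.71 and from 1.18 to 1.65. The Itgb1 to Itgb7 balance of the β chains that α4 can take therefore shifted with phase.

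Of the 7 chains with at least 5 CPM, Itgb7, Itgb2, Itgal, Itga6 and Itga5 were past the 25% threshold and lower in G2M than in G1 in the Usp18+/f-labelled library, where 25.1% of genes were past it in this direction, 22.1% in the other and 47.2% in either. In the Usp18+/Δ-labelled library only Itgb7, Itgb2 and Itgal were past it, with 25.7% of genes lower, 25.8% higher and 51.4% in either direction.

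**Figure D3:**
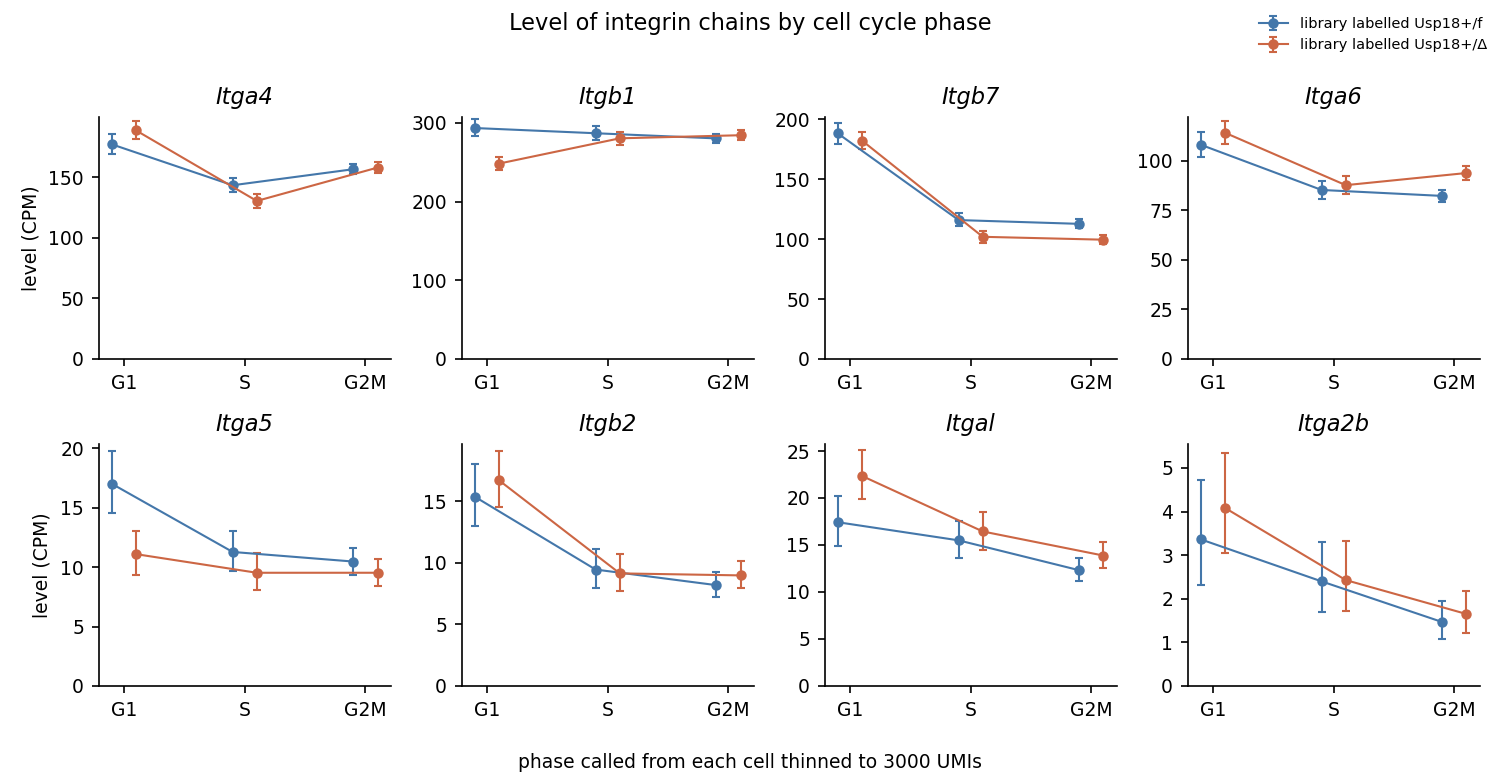
Level (CPM) of 8 integrin chains in cells called G1, S and G2M, in the Usp18+/f-labelled library (blue) and the Usp18+/Δ-labelled library (orange), with exact Poisson 95% intervals. Itgb7 drops from 188 and 182 CPM in G1 to 113 and 99.6 CPM in G2M, while Itgb1 stays between 248 and 293 CPM.

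Phase and depth go together, so the phases were also compared among cells of like depth. Among cells of 6000 to 12000 UMIs (the upper bound is not included, here and below), the G2M over G1 log2 ratio of Itgb7 was −0.51 (−0.62 to −0.40) and −0.53 (−0.64 to −0.42) in the Usp18+/f- and Usp18+/Δ-labelled libraries. Among cells of 3000 to 6000 UMIs it was −0.92 and −0.83, and among cells of 12000 to 24000 UMIs −0.35 (−0.72 to 0.05) and −0.68 (−0.98 to −0.36). Itgb2 stood at −0.97 (−1.37 to −0.56) and −0.67 (−1.04 to −0.30) among cells of 6000 to 12000 UMIs, and Itga4 at −0.18 and −0.17. The phase ratio of other chains was less firm among these cells. Itgal stood at −0.51 (−0.87 to −0.16) and −0.15 (−0.46 to 0.16), Itga2b at −0.48 (−1.55 to 0.64) and −0.55 (−1.42 to 0.37), and Itga5 at −0.48 (−0.85 to −0.10) and −0.17 (−0.56 to 0.24). Itga6 stood at −0.28 and −0.31 there, and at −0.37 and 0.093 (−0.20 to 0.37) among cells of 3000 to 6000 UMIs.

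How did the chains follow the depth of the cell? In both libraries Itgb7, Itga2b, Itgal, Itgb2, Itga5, Itga6 and Itga4 took a larger part of the RNA in the shallower cells compared here. Itgb1 took a smaller part of it in the Usp18+/Δ-labelled library. Cells of 3000 to 6000 UMIs were set against cells of 12000 to 24000 UMIs. Itgb7 stood at 198 against 106 CPM in the Usp18+/f-labelled library and at 205 against 91.0 CPM in the Usp18+/Δ-labelled library, log2 ratios of 0.90 (0.79 to 1.01) and 1.17 (1.06 to 1.28). Itga2b stood at 4.62 against 1.35 CPM and 5.61 against 1.56 CPM, and Itga4 at 178 against 154 CPM and 199.9 against 157 CPM. Itgal stood at 0.42 (0.04 to 0.79) and 1.22 (0.91 to 1.53) on the log2 scale, and Itgb2 at 0.45 (0.00 to 0.88) and 1.02 (0.66 to 1.38). Itga5 stood at 0.90 (0.52 to 1.26) and 0.59 (0.17 to 0.996), and Itga6 at 0.47 (0.32 to 0.61) and 0.24 (0.11 to 0.37).

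In UMIs per cell all 9 chains compared (Itgam was left out) were lower in the shallower cells, with the exception of Itga2b. Itgb1 had 1.31 UMIs per cell against 4.28 in the Usp18+/f-labelled library and 1.01 against 4.24 in the Usp18+/Δ-labelled library. Itga4 had 0.840 against 2.26 and 0.952 against 2.30, and Itgb7 0.933 against 1.56 and 0.976 against 1.33. Itga2b had 0.0218 against 0.0199 and 0.0267 against 0.0228. Of the 7 chains at 5 CPM, Itgb7, Itgb2, Itgal, Itga6 and Itga5 were past the 25% threshold and higher in the shallower cells in the Usp18+/f-labelled library, where 24.5% of genes were past it in this direction, 23.3% in the other and 47.8% in either. In the Usp18+/Δ-labelled library Itga4, Itgb7, Itgb2, Itgal and Itga5 were past it upward and Itgb1 downward, with 29.4% of genes higher, 28.4% lower and 57.8% in either direction.

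Itgb1 differed between the libraries in cells of 1500 to 6000 UMIs. Among cells of 3000 to 6000 UMIs the log2 ratio between them was −0.39 (−0.50 to −0.28) for Itgb1, 0.61 (0.16 to 1.08) for Itgb2, 0.71 (0.32 to 1.10) for Itgal and −0.54 (−0.99 to −0.10) for Itga5. Outside cluster 5 these ratios were −0.33 (−0.45 to −0.22), 1.13 (0.57 to 1.72), 0.55 (0.09 to 1.01) and −0.10 (−0.64 to 0.44). In cells of 6000 to 12000 UMIs Itgb1 stood at −0.0023 (−0.04 to 0.04), and in cells of 12000 to 24000 UMIs at 0.0012 (−0.06 to 0.06). Below 1500 UMIs the log2 ratio between them was 0.0052 (−0.54 to 0.52) for Itgb1, −0.11 (−0.84 to 0.57) for Itga4 and 0.23 (−0.88 to 1.22) for Itgb7. Among cells of 1500 to 3000 UMIs, Itga2b stood at 4.21 CPM (2 UMIs) in the Usp18+/f-labelled library and 42.7 CPM (30 UMIs) in the Usp18+/Δ-labelled library. Itgb1 stood at 378 CPM (180 UMIs) and 200.5 CPM (141 UMIs), a log2 ratio of −0.92 (−1.24 to −0.59). Itga4 stood at 246 and 311 CPM and Itgb7 at 179 and 248.8 CPM. The makeup of this depth range differed too: 17.3% of its 196 cells belonged to cluster 5 in the Usp18+/f-labelled library, and 66.2% of its 293 cells in the Usp18+/Δ-labelled library. Cluster 8, where Itgb1 stood at 664 and 697 CPM, made up 30.1% and 2.05% of these cells, and its part in the Itgb1 value was not tested.

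Cluster 5 is described next, and the values were taken again without it. In cells of 1500 to 3000 UMIs outside cluster 5, Itga2b had 1 and 2 UMIs, Itga4 had a log2 ratio between the libraries of −0.37 (−0.90 to 0.13), Itgb7 stood at 174 and 155 CPM and Itgb1 at 423 and 265 CPM, a log2 ratio of −0.67 (−1.11 to −0.25). The depth pattern of Itgb7 remained in cells outside cluster 5, with log2 ratios of 0.74 (0.62 to 0.86) and 1.09 (0.98 to 1.21). In the Usp18+/f-labelled library the ratios outside cluster 5 were 0.31 (−0.11 to 0.72) for Itgal, 0.10 (−0.02 to 0.22) for Itga4 and 0.46 (−0.01 to 0.90) for Itga5, with intervals that span 0, and in the other library 0.95, 0.20 and 0.56 with intervals above 0. That of Itgb2 was lost in the Usp18+/f-labelled library, at −0.05 (−0.61 to 0.47), and stood at 1.04 (0.65 to 1.42) in the other.

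**Figure D4:**
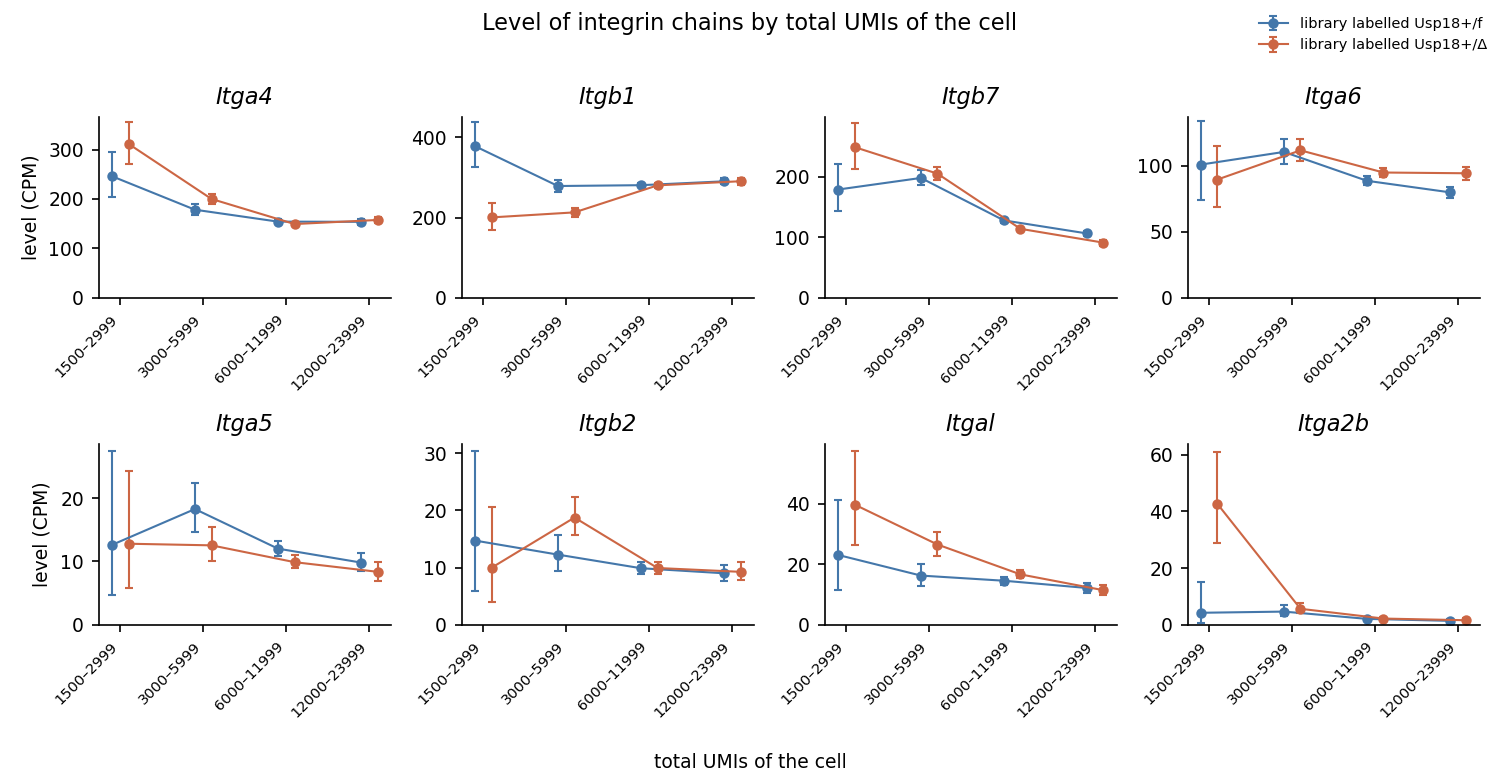
Level (CPM) of 8 integrin chains in cells grouped by their total UMIs, in the Usp18+/f-labelled library (blue) and the Usp18+/Δ-labelled library (orange), with exact Poisson 95% intervals. Itgb7 is lower in deeper cells of both libraries, and at 1500 to 3000 UMIs the libraries part in Itgb1 (378 and 200.5 CPM) and Itga2b (4.21 and 42.7 CPM).

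In which clusters of cells were the chains high? The cells were grouped into 9 clusters by their RNA, with the integrin chains themselves left out of the genes used. The β7 chain was highest in cluster 5 in both libraries. The α4 chain was highest there in the Usp18+/Δ-labelled library and second to cluster 8 in the other. Cluster 5 is led by Serpinb1a and the mast cell protease genes Tpsg1, Mcpt4, Cpa3, Mcpt1, Mcpt2 and Cma1. Cluster 5 was shallow, with a median of 3794 UMIs, and 68.8% of its cells were called G1. Of the 9 listed markers of mast cells and basophils, Cma1, Cpa3 and Mcpt4 were among its 10 leading genes. No test sets a cluster against the rest, and these values are a description.

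In cluster 5 Itga4 stood at 249.5 and 301 CPM in the Usp18+/f- and Usp18+/Δ-labelled libraries, against 156 and 154 CPM in all other clusters. Itgb7 stood at 277 and 255 CPM against 124 and 115 CPM, a log2 ratio of 1.16 (0.99 to 1.32) and 1.15 (1.02 to 1.27). Itgal stood at 27.1 and 44.7 CPM against 13.9 and 15.7 CPM, and Itga2b at 7.61 CPM (9 UMIs) and 22.6 CPM (47 UMIs) against 1.95 and 2.19 CPM. Itgb2 stood at 33.8 and 16.8 CPM against 9.37 and 10.5 CPM. Each of these chains was higher inside cluster 5 than outside it in both libraries, with intervals above 0. The share of all genes that were higher inside cluster 5 was not counted. For Itga5 the log2 ratio of inside to outside was 2.10 (1.68 to 2.49) and 0.16 (−0.51 to 0.76), for Itga6 0.80 (0.58 to 1.02) and 0.04 (−0.16 to 0.24), and for Itgb1 −0.17 (−0.34 to −0.0049) and −0.88 (−1.04 to −0.72). Which cells fall in cluster 5 depended on the random seed: with another seed the matched cluster held 976 cells, among them 75.9% of cluster 5, and the ratio was 0.49 (−0.05 to 0.996) and 0.97 (0.63 to 1.30) for Itgal and −0.0064 (−0.14 to 0.12) and −0.57 (−0.70 to −0.44) for Itgb1, while the intervals of Itgb7 ran from 1.11 to 1.38 and from 1.15 to 1.37.

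Levels within cluster 5 also differed between the libraries. Itgb1 stood at 255 CPM (302 UMIs) in the Usp18+/f-labelled library and 152 CPM (316 UMIs) in the Usp18+/Δ-labelled library, a log2 ratio between the libraries of −0.75 (−0.98 to −0.52). Itga5 stood at 47.4 CPM (56 UMIs) and 11.1 CPM (23 UMIs), a log2 ratio of −2.10 (−2.87 to −1.38). Itga6 stood at 151 and 99.5 CPM (−0.61, −0.90 to −0.31) and Itgb2 at 33.8 and 16.8 CPM (−1.01, −1.71 to −0.32). Itga2b went the other way, at 1.57 (0.52 to 2.78), as did Itgal at 0.72 (0.13 to 1.35), while Itga4 was 0.27 higher (0.07 to 0.47).

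Several of the genes that lead cluster 5 stood at different levels in the 2 libraries, while Cma1 was level at 6215 and 6265 CPM. Mcpt1 stood at 3416 and 895 CPM, Mcpt2 at 1944 and 628 CPM and Serpinb1a at 2185 and 889.7 CPM, whereas Cpa3 stood at 1256 and 2626 CPM. Of the progenitor markers, Kit stood there at 262 and 432 CPM and Cd34 at 25.4 and 87.0 CPM. The cluster held 257 and 564 cells with a median of 4499 and 3554.5 UMIs. Their part in the integrin values was not tested.

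Cluster 4, with 89.0% G1 calls, has the neutrophil genes S100a9, S100a8 and Camp, the haemoglobin genes Hbb-bt, Hbb-bs and Hba-a2, Trp53inp1 and Csf2rb2 among its leading genes, and it holds the 1 cell with 1278 neutrophil UMIs. It came next for Itgb7, at 207 and 194 CPM, and Itgb2 stood there at 16.7 and 18.4 CPM. The clusters of S phase and mitosis were lower than cluster 4 in Itgb7 and Itgb2. Cluster 3, led by histone genes, had the lowest Itga4 of all clusters (112 and 112 CPM), with Itga6 at 68.9 and 76.9 CPM and Itgb7 at 105 and 89.4 CPM. Clusters 2 and 6, led by mitosis genes such as Cenpf, Plk1, Ccnb1 and Cdc20, had Itga4 at 169 and 178 CPM and at 181 and 189.6 CPM. These Itga4 levels were above the 158 and 159 CPM of the whole libraries. Cluster 7, led by the haemoglobin genes, had 83 and 61 cells and the lowest Itga6 (59.8 and 65.7 CPM).

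Over all 9 clusters the highest level of Itgb1 was 3.30 and 4.59 times its lowest, against 2.63 and 2.85 times for Itgb7. Outside clusters 5, 7 and 8 it lay between 252 and 307 CPM in every cluster of both libraries. In cluster 8 it stood at 664 and 697 CPM, and Itga4 at 389 and 226 CPM. That cluster held 312 and 43 shallow cells (median 1055 UMIs) whose mitochondrial share was low (median 0.890%, where all kept cells had 6.32% and 6.44%), and was led by Rpgrip1, AY036118 and mt-Nd6.

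**Figure D5:**
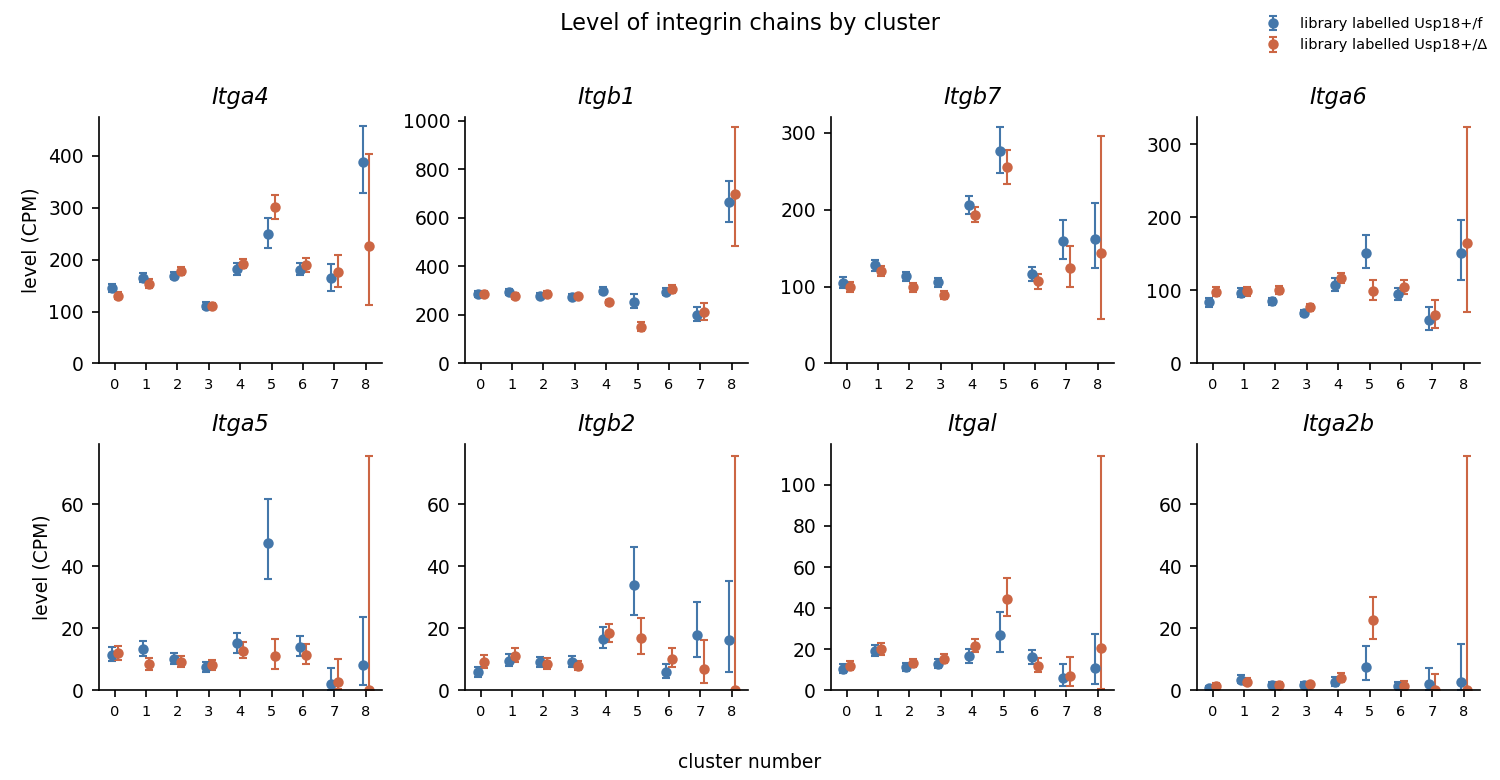
Level (CPM) of 8 integrin chains in 9 clusters, in the Usp18+/f-labelled library (blue) and the Usp18+/Δ-labelled library (orange), with exact Poisson 95% intervals. Cluster 5 is highest for Itgb7 in both libraries (277 and 255 CPM), and within it the libraries differ in Itgb1, Itga5 and Itga2b.

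Levels of the leading chains were compared across 17 sums of 1 library and 1 cluster of at least 50 cells. Itga4 went with Itgb7 (Pearson r of log2 CPM 0.69) and with Itga6 (0.68), whereas Itgb1 stood at 0.24 with Itga4 and −0.24 with Itgb7. The points share libraries and depth, and r is a description. Cluster 8 of the Usp18+/f-labelled library had Itgb1 at 664 CPM and Itga4 at 389 CPM, and no other point had Itgb1 above 307 CPM. Values of r without this shallow cluster were not computed, so those of Itgb1, here and below, may hang on it. Of 5983 genes at 20 CPM or more on average, those most like Itga4 were Ppp1r12a (0.93), Map4k5 (0.92) and Tnrc6b (0.91). Those most like Itgb1 were Dnm1l, Wrn and Aven (0.94 to 0.95), those most like Itgb7 were Plekho2, Senp7 and Slc2a3 (0.95 to 0.97), and those most like Itga6 were Aph1a, Kdm5b and Strn (each 0.93).

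Thinned cells were also split by the RNA of single genes. Cells with a UMI of Cpa3, a mast cell protease, had more Itgb7 than cells without one, 188 against 126 CPM in the Usp18+/f-labelled library and 190.2 against 118 CPM in the Usp18+/Δ-labelled library. Their Itga4 was higher as well (184 against 155 CPM and 193 against 153 CPM), and their Itgb1 was not (270.4 against 293 CPM and 229 against 277 CPM). In the 10% of cells with most haemoglobin RNA, Itgb7 stood at 228 against 126 CPM and 237 against 122 CPM. These cells were shallower than the rest, with medians of 7223 against 9015 UMIs and 6535.5 against 8426 UMIs. In cells with a UMI of Kit, the receptor used for the sort, Itgb7 was 0.23 (0.10 to 0.35) and 0.32 (0.20 to 0.44) higher on the log2 scale and Itga4 0.09 (−0.03 to 0.21) and 0.13 (0.02 to 0.24). Itgal stood at 0.30 (−0.11 to 0.68) and 0.63 (0.31 to 0.93), and Itgb1 at 0.03 (−0.06 to 0.12) and −0.12 (−0.21 to −0.03).

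Did cells with a strong interferon response carry other integrins? Cells above the 99th percentile of summed interferon-stimulated genes of the Usp18+/f-labelled library numbered 55 there and 819 in the Usp18+/Δ-labelled library. Within the Usp18+/Δ-labelled library these cells had Itgb7 at 184 against 126 CPM in the other cells, Itga4 at 189 against 158 CPM and Itgb1 at 262 against 268 CPM. The log2 ratios were 0.55 (0.40 to 0.70), 0.26 (0.12 to 0.41) and −0.03 (−0.15 to 0.09). Itgb2 stood at 0.87 (0.38 to 1.34), Itga5 at 0.68 (0.11 to 1.22) and Itgal at 0.45 (0.03 to 0.85). In the 55 cells of the Usp18+/f-labelled library Itgb1 was higher, at 0.45 (0.08 to 0.80), while Itgb7 stood at 0.52 (−0.03 to 1.02) and Itga4 at 0.28 (−0.27 to 0.78). The interferon-high cells of the Usp18+/Δ-labelled library were also shallower, with a median of 6448 against 8502 UMIs, and the part of depth in this result was not tested.

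What else of the integrin machinery was there? The switches were present in both libraries. Talin (Tln1), which opens the receptor from inside, stood at 218 and 237 CPM, and kindlin-3 (Fermt3), the kindlin of blood cells, at 265 and 274 CPM. Rap1b, the small GTPase upstream of talin, stood at 92.3 and 86.9 CPM. Of 16 genes of integrin activation 12 had at least 5 CPM and 0 were past the 25% threshold between the libraries, of 9 inactivators 6 and 0, and of 30 genes that signal from the β chain tail or act beside it 20 and 0, against 4.60% of all genes. The medians of these lists were 0.03, 0.02 and 0.03 on the log2 scale, with 0.01 for all genes. The widest values in them were those of Rapgef3, an activator of Rap1, at −0.29 (−0.37 to −0.21), and of Cd81, a tetraspanin partner of integrins, at 0.29 (0.25 to 0.33), both named after their values were seen.

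Of 21 ligand genes only 4 reached 5 CPM, 8 were at 0 in both libraries and 0 were past the 25% threshold. Icam4, a red cell protein that binds integrins, named after its values were seen, stood at 134 and 121 CPM. Vcam1, the ligand of VLA-4, had 39 and 100 UMIs (0.672 and 1.68 CPM), a log2 ratio of 1.32 (0.78 to 1.90). Macrophage markers moved in the same direction, with a summed 2.08 and 5.51 CPM over 6 genes, none of them at 0 in both libraries. Their part in the Vcam1 value was not tested. Of 12 other adhesion receptors of progenitors, 5 reached 5 CPM and 2 were past the 25% threshold, both higher in the Usp18+/Δ-labelled library, against 3.48% of all genes. They were Cd24a, a surface glycoprotein, at 63.6 and 80.5 CPM (0.34, 0.28 to 0.40), and Bst2 (tetherin), an interferon-stimulated gene, at 141 and 254 CPM (0.85, 0.81 to 0.89).

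The gene models of the GENCODE vM21 annotation (mm10) bear on which reads could be shared. Itgam on chromosome 7 is overlapped on its own strand by the protein-coding gene model Gm49368, so that reads common to both could go uncounted. Itga4 (chr2:79255426-79333123) meets Cerkl on the other strand, Itga6 (chr2:71745616-71858416) meets 2 processed transcripts on its own strand and a lincRNA and a pseudogene on the other, and Itga2b and Itga5 each enclose 1 small RNA gene. No other gene model overlapped Itgb1 (chr8:128685654-128733200), Itgb7 (chr15:102215995-102231944), Itgb2, Itgal or Itgb3.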

How the data were processed

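Counts of UMIs per gene and cell barcode were used as deposited, 1 matrix per library. The authors made them from 10x 3′ reads with Cell Ranger 3.0.2 per the file headers, with mm10 and Seurat named in the submitters' processing notes. A barcode was kept if it showed 500 genes or more and a mitochondrial share of 10% or less (6886 of 7281 and 7406 of 7833). Scrublet marked only 3 and 2 cells by its own threshold, so cells above the 95th percentile of its score were removed (340 and 333). Counts were summed over cells and scaled to CPM. Phases, shares, pairs and classes used cells thinned to 3000 UMIs. Clusters came from 2000 variable genes without integrin chains, interferon-stimulated genes and sex-linked genes, 30 principal components and Leiden clustering at resolution 0.8 (scanpy 1.11.5, Python 3.11.15, numpy 2.4.6, scipy 1.17.1).

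Groups were taken from the sample labels. A transgene common to both groups is not reported here. With 1 library per group no test was run, and p-values are not given. Counts of genes past the size threshold are by size alone. Intervals are exact Poisson for CPM, Clopper-Pearson for shares, exact conditional for ratios of counts and score intervals for ratios of shares, all at 95% and for counting error only. The genes named by rule are the 10 chains, other chains at 5 CPM or more, partner genes past the size threshold, Tln1, Fermt3, Rap1b and Vcam1, and the 3 genes most like each chain of 20 CPM or more. A difference was set against a size threshold of 25% in genes at 5 CPM or more on average. The chains, the lists of partner genes and the markers were chosen with earlier results of these data known. The scripts were tested on simulated data. Sequences are from RefSeq (GRCm38.p6), which matched 6 of the 10 chains, and Itgb2, Itgal, Itga6 and Itgb3 were not matched. Alternatives varied the mitochondrial limit, thinning depth, doublet removal, weighting of phases and depths, clustering resolution and level filter.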

Additional observations from a re-analysis of the deposited data

Results flagged for a closer look

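Itgb1 went in opposite directions between phases in the 2 libraries. Its G2M over G1 log2 ratio was −0.066 (−0.13 to −0.01) in the Usp18+/f-labelled library and 0.20 (0.14 to 0.25) in the Usp18+/Δ-labelled library. Among cells of 6000 to 12000 UMIs the ratios were −0.15 (−0.23 to −0.08) and 0.087 (0.01 to 0.16). The directions were not opposite in the other depth ranges. They stood at 0.079 (−0.10 to 0.26) and 0.21 (0.01 to 0.41) among cells of 3000 to 6000 UMIs, and at −0.05 (−0.30 to 0.22) and −0.24 (−0.43 to −0.03) among cells of 12000 to 24000 UMIs. The difference between the libraries was not tested, since each group is 1 library.

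Itga4 was also present in barcodes that the mitochondrial limit left out. Among the 290 and 404 barcodes with over 10% mitochondrial UMIs it stood at 139 CPM in the Usp18+/f-labelled library and 181 CPM (158 to 206) in the Usp18+/Δ-labelled library, a log2 ratio of 0.38 (0.07 to 0.69), where the kept cells had 0.01. Itgb1 stood at 253 and 213 CPM in these barcodes and Itgb7 at 163 and 154 CPM.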

How the results depend on the processing

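No paired analysis was possible because there was a single library in each group, so that no replicate could be left out either. Counting error is widest for Itgam, Itgb3 and Itga2b, which had from 1 to 173 UMIs per library. The limit of 5% mitochondrial UMIs moved most: it kept 1013 and 732 cells, of which 3.36% and 27.3% were in cluster 5 and 15.9% and 48.2% in G1. There the library ratio of Itgb7 turned to 0.23, the median of the chains was 0.16, 5 of 8 chains were past the 25% threshold (28.5% of all genes), the share of cells with Itga4 and Itgb1 differed by −0.25, the Itgb7 G2M over G1 ratio was −0.94 (Usp18+/f) and −1.24 (Usp18+/Δ), its ratio of shallower to deeper cells 0.64 and 1.42, and that of Itgb2 turned to −0.45 (Usp18+/f). With equal weight for depth ranges the library ratio of Itgb7 turned to 0.14 and that of Itga6 to −0.10, and 3 of 8 chains were past the threshold (38.3% of all genes). The count past the threshold was 1 with the mean of per-cell CPM (7.13%), 1 with equal weight for phases (4.34%) and 1 of 8 with a filter of 1 CPM (8.83%). The Itgb7 phase ratio was −0.82 and −0.97 with phases from cells without thinning, −0.51 and −0.53 in cells of 6000 to 12000 UMIs and −0.55 and −0.62 without cells under 6000 UMIs. In the Usp18+/f-labelled library it was −0.84 as thinned UMIs per cell and −0.64 without cluster 5. At resolution 0.4 the cluster matched to cluster 5 held 3428 cells, of which 23.9% were of cluster 5, with Itgb7 at 0.90 (Usp18+/f) and 0.999 (Usp18+/Δ) over the others and Itgb1 turned to 0.032 (Usp18+/f). At 1500 UMIs per cell the share with Itga4 and Itgb1 differed by −0.17. The causes were not tested. All 112 values of the phase comparison under these alternatives, of which the 6000 to 12000 range was the only single depth range, kept their sign, and in other depth ranges Itgb1, Itga6, Itga5 and Itgal each changed sign in at least 1 library. Leaving out cluster 5, cluster 8, cells of 1500 to 3000 UMIs or the cell with most neutrophil RNA was chosen after seeing the data, as was leaving out cells under 6000 UMIs for the phases. Between the libraries 0 chains were past the threshold under each of the first 4.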
